A study of Bienertia sinuspersici with 9 samples.

Results

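Intermediate leaves of Bienertia sinuspersici were compared with young leaves of the same species, at the step in which the leaf grows out but is not yet mature. The comparison used the 3 intermediate libraries and the 3 young libraries, which are 6 of the 9 RNA-seq libraries of the series, over all 11709 unigenes (assembled transcripts) for which the authors deposited normalized values. Intermediate leaves were 0.3 to 0.7 cm long and young leaves were shorter than 0.3 cm. All plants were wild type and grown in a greenhouse, where they were regularly watered with dilute NaCl and given NPK fertilizer, and the stages were not set apart by any treatment. Whole leaves were extracted at both stages, so each value averages the chlorenchyma, epidermis, water-storage and vascular cells of a leaf. Each stage had 3 biological replicates, but the labels do not say which plants went into each, and the p-values speak only of the spread among libraries. The 3 mature libraries, from the tip part of leaves longer than 2 cm, entered the fit only for its estimate of the spread.

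Bienertia runs C4 photosynthesis inside single chlorenchyma cells, where other C4 plants divide the work between mesophyll and bundle sheath cells. CO2 is first fixed in the cytosol into a 4-carbon acid, the acid is moved to a central compartment rich in mitochondria, and CO2 is released there next to chloroplasts that hold Rubisco. In young leaves the chlorenchyma cells still have 1 kind of chloroplast, and the peripheral and central compartments form as the leaf expands. The cycle belongs to the NAD-malic enzyme type, in which aspartate carries carbon into the mitochondria.

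Gene names were at hand for 14 unigenes from the text of the study and 195 from the first rows of its annotation, and 139 of these were placed in 18 lists by function. Names such as SPL8 or AT1G04150 are those of the Arabidopsis genes that the unigenes resemble most, and the roles given here are known from Arabidopsis or other plants. Sequences of the unigenes were not analysed here. By qRT-PCR the paper reports patterns over the leaf stages that matched its RNA-seq for the genes it tested, PPDK and PEPC1 among them. The oligonucleotides that the study designed for its qRT-PCR of PPDK and PEPC1 are printed. They tie the unigenes with the largest rises among the listed C4 cycle enzymes to a transcript that can be amplified. Each is in lower case from 5′ to 3′, with no part singled out:
PPDK forward: gggattggctttctcttaatgga
PPDK reverse: aggtggtgaaagcggttcttt
PEPC1 forward: cccgctttgttgagtacttcc
PEPC1 reverse: gcttccgatattcatgcgtcc

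Expression changed in both directions between the stages, with modest sizes. In limma on log2(TPMTMM + 1), where TPMTMM is TPM normalized between libraries, 350 unigenes rose in intermediate leaves (2.99% of those tested) and 323 fell (2.76%) at an adjusted p under 0.05, in all 673 (5.75%). Rises had a median log2 fold change of 0.61 and ran from 0.34 to 1.98, while falls had a median of -0.76 and ran from -2.42 to -0.35. The deepest changes were falls: 84 unigenes fell by more than 1 on the log2 scale and 28 rose by as much, and 11 fell by more than 2, a size that no rise reached. In all 673 of these unigenes each intermediate library lay apart from each young library. Groups lay apart upward in 18.2% of all unigenes tested and downward in 15.7%.

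Same-numbered intermediate and young libraries deviated from their stage means in the same direction (correlations of 0.445 to 0.696), and a second fit, called the paired fit here, took the 6 libraries with the number as a blocking term. Libraries 1 and 2 correlated as strongly across numbers (0.508 and 0.547), so the values set number 3 apart from 1 and 2 and do not tell 1 from 2. In the paired fit 1510 unigenes rose (12.9%) and 1099 fell (9.39%). With the block in a fit of all 9 libraries 235 rose (2.01%) and 261 fell (2.23%). In the paired fit, all 350 rises and 320 of the 323 falls of the fit without the block were called again. Of its 2609 calls (22.3%), 2101 had groups that lay apart and 508 had overlapping groups whose 3 pairs moved alike. In TPM without scaling between libraries, where the median unigene fell by 0.12 on the log2 scale, 169 unigenes rose (1.44%) and 515 fell (4.4%), so the split between rises and falls depends on the scaling. With upper-quartile scaling 293 rose (2.5%) and 385 fell (3.29%). Without 1 of the libraries the 673 calls became 72 (intermediate 1), 304 (intermediate 2), 172 (intermediate 3), 91 (young 1), 62 (young 2), 124 (young 3), 1134 (mature 1), 368 (mature 2) or 564 (mature 3). Only 5 of the rises and 45 of the falls passed in each of these 9 fits.

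**Figure D1:**
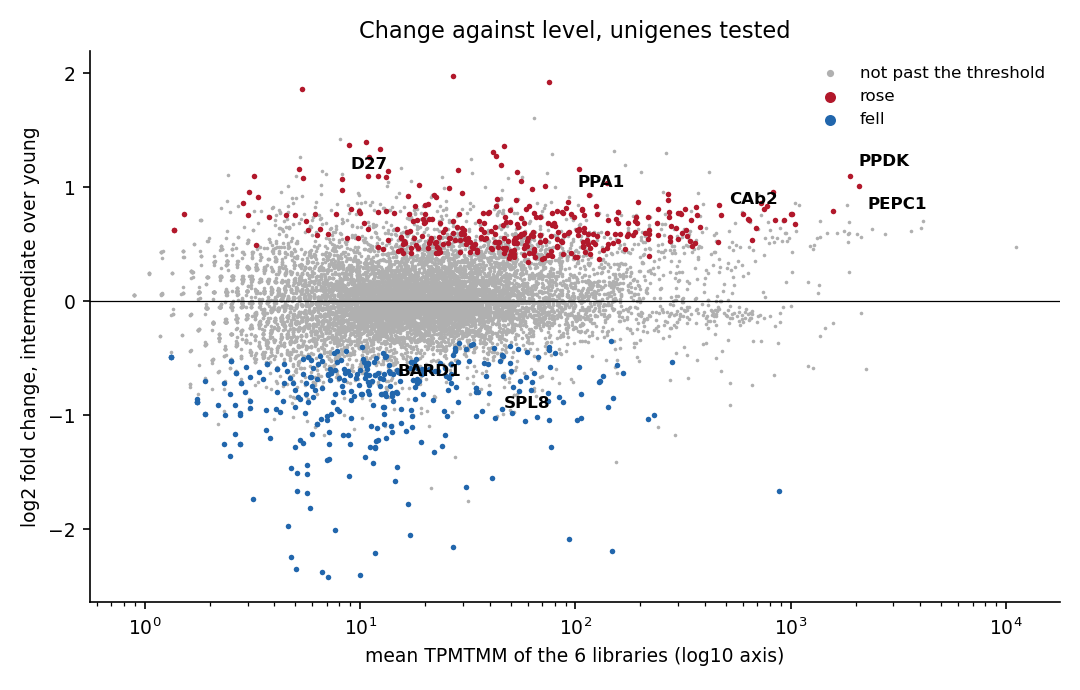
Each point is 1 of 11709 unigenes, with its mean TPMTMM over the 6 intermediate and young libraries (log10 axis) and its log2 fold change of intermediate over young leaves. Red points are the 350 unigenes that rose and blue points the 323 that fell in limma, and rises sit farther to the right (median mean of 53.1 TPMTMM) than falls (11.7 TPMTMM).

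Abundant transcripts held a larger share of rises, and scarce ones a larger share of falls. The median unigene that rose had a mean of 53.1 TPMTMM over the 6 libraries, the median one that fell had 11.7 TPMTMM, and the median of all unigenes tested was 16.7 TPMTMM. Of 284 unigenes above 300 TPMTMM, 34 rose (12%) and 1 fell (0.352%). Of 1589 unigenes under 5 TPMTMM, 12 rose (0.755%) and 58 fell (3.65%). The share that rose went up from each class to the next, the share that fell did not follow the order of the classes strictly, and the median log2 fold change climbed from class to class, with -0.05 under 5 TPMTMM, -0.04 at 5 to 10, -0.01 at 10 to 30, 0.04 at 30 to 100, 0.12 at 100 to 300 and 0.25 above 300. The paired fit gave the same tilt, with 29.2% risen and 4.93% fallen above 300 TPMTMM, against 5.79% risen and 7.93% fallen under 5 TPMTMM. In TPM without scaling, 12 rose and 3 fell in the highest class, and 9 rose and 110 fell in the lowest. Without intermediate 1, young 1, young 2 or young 3, 0 unigenes of the class above 300 TPMTMM rose. The count was 17 without intermediate 2, 4 without intermediate 3, 53 without mature 1, 8 without mature 2 and 24 without mature 3.

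**Figure D2:**
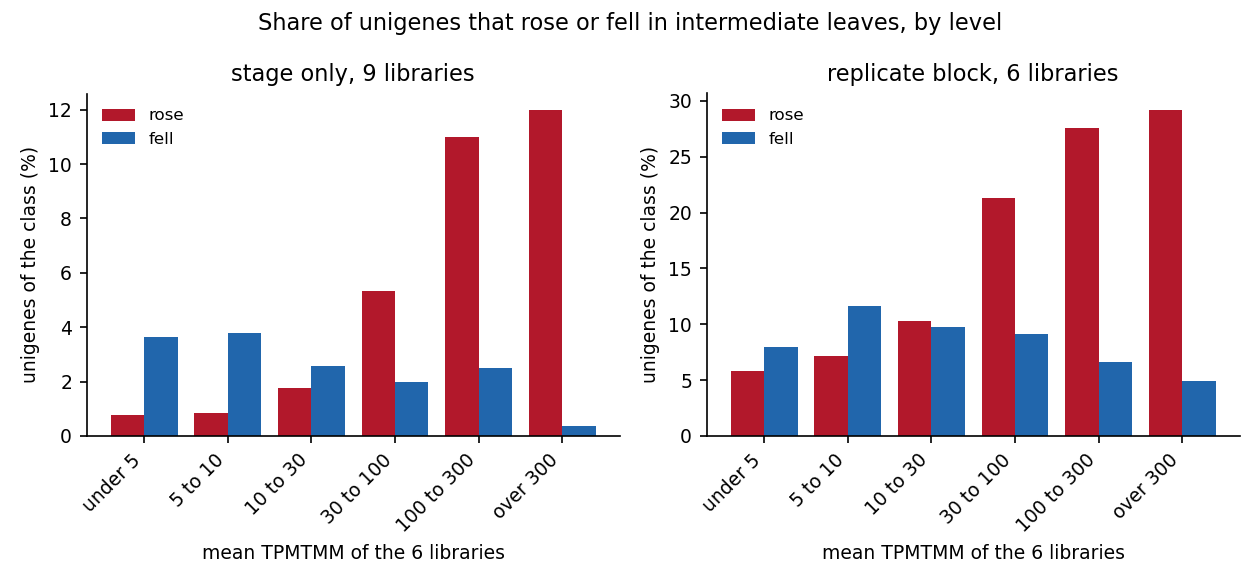
Bars give the share of unigenes (%) that rose (red) or fell (blue) in intermediate leaves, in 6 classes of mean TPMTMM over the 6 libraries, for the fit of 9 libraries with stage only (left) and the paired fit (right). The share that rose goes up with level in both panels, to 12% and 29.2% above 300 TPMTMM.

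Enzymes of the C4 cycle on the list were already abundant in young leaves, and most of them were higher still in intermediate leaves. ALA-AT2, which the paper also counts among these enzymes, was not among the unigenes with a name here. Of the 9 listed enzymes, 6 rose, where 2.99% of all unigenes did, 0 fell and 3 did not pass. The median log2 fold change of the list was 0.80, against -0.0029 over all unigenes. All 9 had means of 324 to 2085 TPMTMM, in the class above 300 TPMTMM, where 12% rose and the median was 0.25. All 9 changes were positive, and in 8 of the 9 the lowest intermediate library exceeded the highest young one, as in 18.2% of all unigenes. The study singled these genes out as C4 cycle members while working with the same libraries, so the counts are no independent evidence of direction. In whole leaves, more chlorenchyma cells and more transcript in each such cell cannot be told apart.

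Carbonic anhydrase, which supplies bicarbonate to the first fixation step, was represented by a pair of genes. CAb1 had 713, 756 and 914 TPMTMM in the 3 intermediate libraries, against 512, 516 and 426 TPMTMM in the 3 young libraries. The change was 0.71 on the log2 scale (SE 0.16, limma adjusted p = 0.0442), and the 3 intermediate libraries exceeded all young ones. CAb2 had 547, 516 and 732 TPMTMM in intermediate leaves, against 347, 377 and 326 TPMTMM in young leaves, a log2 fold change of 0.76 (SE 0.16, limma adjusted p = 0.0322). Reads of near-identical stretches in this pair, or in the pair of aspartate aminotransferases, could have been split between members when the authors quantified them, so the values of each member are uncertain to that extent.

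PEPC1 (unigene BS15679_c0_g1_i1), the phosphoenolpyruvate carboxylase that fixes bicarbonate, was the most abundant enzyme of the list in intermediate leaves. It had 2230, 2274 and 3960 TPMTMM there, against 1303, 1269 and 1476 TPMTMM in young leaves, with a log2 fold change of 1.01 (SE 0.24, limma adjusted p = 0.0470). PPDK (unigene BS50819_c1_g1_i1), which regenerates phosphoenolpyruvate from pyruvate, had 2171, 2105 and 3525 TPMTMM in intermediate leaves and 1154, 1119 and 1276 TPMTMM in young leaves. The log2 fold change, 1.10 (SE 0.22, limma adjusted p = 0.0297), was the largest of the list. For both enzymes intermediate 3 stood well above the other 2 intermediate libraries, while the 3 young libraries lay close together. With intermediate 3 and young 3 both left out, an alternative chosen after seeing the data, the log2 fold change was 0.91 for PPDK (limma adjusted p = 0.0475) and 0.81 for PEPC1 (adjusted p = 0.0836). PEPC1 also missed the threshold in the 6 libraries alone, with upper-quartile scaling, with the block in 9 libraries and without any 1 library other than mature 1, at limma adjusted p-values of 0.0517 to 0.144.

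ASP-AT1 and ASP-AT2 are aspartate aminotransferases, which turn the first acid into aspartate and back. ASP-AT1 had 366, 345 and 537 TPMTMM in intermediate leaves, against 225, 236 and 235 TPMTMM in young leaves (log2 fold change 0.81, SE 0.17, limma adjusted p = 0.0330). ASP-AT2 had 833, 847 and 1187 TPMTMM in intermediate leaves, against 543, 564 and 512 TPMTMM in young leaves (log2 fold change 0.80, SE 0.19, limma adjusted p = 0.0456). Both had their highest value in intermediate 3. NAD-ME2, a malic enzyme that releases CO2 in mitochondria, had 1112, 1084 and 1928 TPMTMM in intermediate leaves and 708, 722 and 753 TPMTMM in young leaves. It missed the threshold with a log2 fold change of 0.86 (SE 0.22, limma adjusted p = 0.0547) and passed it in the paired fit (adjusted p = 0.0176).

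The malate dehydrogenases, which interconvert malate and oxaloacetate, had the smallest changes of the list. mMDH2 had 856, 765 and 956 TPMTMM in intermediate leaves, against 628, 674 and 640 TPMTMM in young leaves, and did not pass (log2 fold change 0.40, SE 0.12, limma adjusted p = 0.0866). cMDH1 had 617, 563 and 545 TPMTMM in intermediate leaves and 506, 554 and 501 TPMTMM in young leaves, and its groups overlapped (log2 fold change 0.14, SE 0.11, limma adjusted p = 0.539). Neither passed in the paired fit. For the list as a whole, 7 enzymes rose in the paired fit, where 29.2% of unigenes above 300 TPMTMM did. In limma over all 36907 unigenes with TPM, where 106 unigenes rose, 0 of the enzymes did. In TPM without scaling 4 rose (1.44% of all unigenes did), and 1 rose with the block in a fit of all 9 libraries (2.01% did). The count was 0 without intermediate 1, young 1, young 2 or young 3, and 3, 2, 7, 1 and 5 without intermediate 2, intermediate 3, mature 1, mature 2 and mature 3 in that order, and 1 without intermediate 3 and young 3 together. No enzyme of the list changed sign in any of these fits.

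**Figure D3:**
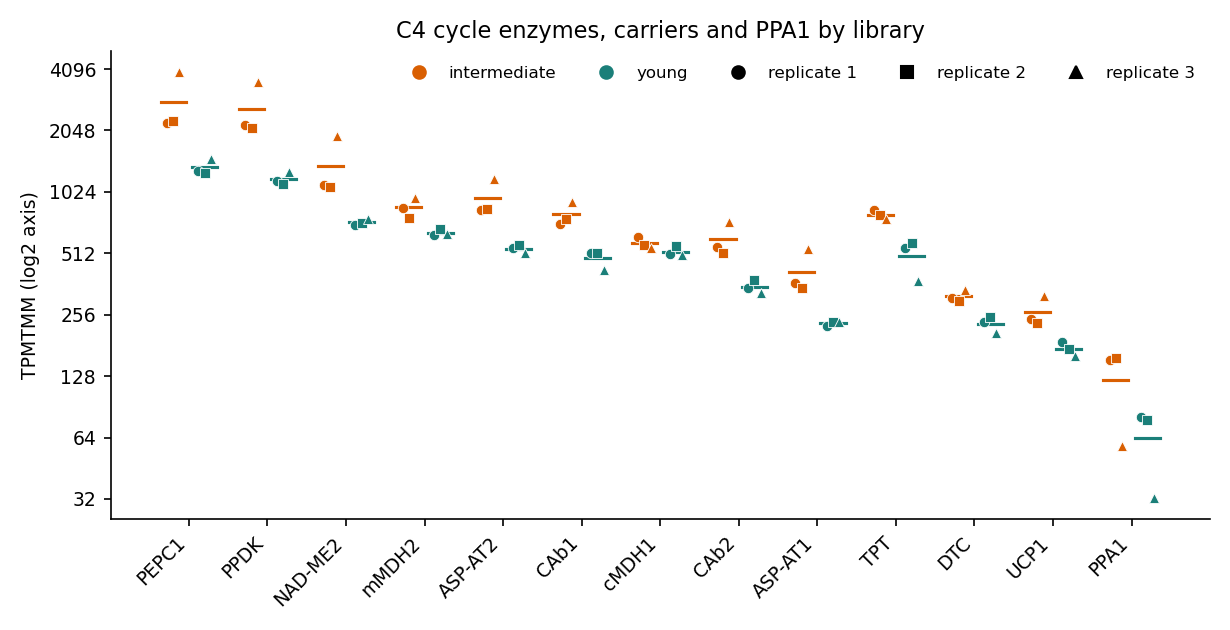
Points are the TPMTMM of 1 library each (log2 axis) for 9 C4 cycle enzymes, 3 carriers and PPA1, with intermediate libraries (orange) left of young libraries (green), symbols for the replicate number and a line at the mean of 3 libraries. Groups are apart for each gene but cMDH1 and PPA1, and PPA1 is lowest in both replicates 3 (57.9 TPMTMM in intermediate leaves and 32.4 TPMTMM in young leaves).

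The 3 listed carriers, which move metabolites across organelle membranes, all rose in the paired fit, where 12.9% of all unigenes did. In the classes of their levels 27.6% (100 to 300 TPMTMM) and 29.2% (above 300 TPMTMM) rose in that fit. Other carriers that the paper names, such as BASS2, PPT1 and DIC, were not among the unigenes with a name here. UCP1 (unigene BS2112_c0_g1_i4), a carrier of the mitochondrial inner membrane, had 245, 233 and 318 TPMTMM in intermediate leaves and 189, 174 and 160 TPMTMM in young leaves. It was the only carrier past the threshold without the block, where 2.99% of all unigenes rose (log2 fold change 0.59, SE 0.14, limma adjusted p = 0.0431). DTC, the mitochondrial dicarboxylate and tricarboxylate carrier, had 309, 299 and 339 TPMTMM in intermediate leaves, against 236, 251 and 209.2 TPMTMM in young leaves (log2 fold change 0.45, limma adjusted p = 0.0705 and 0.0306 in the paired fit). TPT, the chloroplast exporter of triose phosphates, had 832, 793 and 754 TPMTMM in intermediate leaves and 543, 575 and 376 TPMTMM in young leaves (log2 fold change 0.69, limma adjusted p = 0.0754 and 0.0159 in the paired fit). The largest fold of TPT within a pair, 2.01 in replicates 3, stood between the lowest library of each stage. UCP1 did not pass in TPM without scaling, with upper-quartile scaling or in the fit of the 6 libraries without the block. Without 1 library it passed only for mature 1, where all 3 carriers passed and 620 of 11709 unigenes rose.

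PPA1 (unigene BS12153_c0_g1_i11), an inorganic pyrophosphatase, passed in the paired fit only. It had 154, 156 and 57.9 TPMTMM in intermediate leaves, against 80.6, 78.2 and 32.4 TPMTMM in young leaves. The groups overlapped, with low values in both libraries numbered 3, and the ratio of intermediate to young was 1.91, 2.00 and 1.79 in the 3 pairs. The log2 fold change was 0.91. Its standard error was 0.73 without the block (limma adjusted p = 0.565) and 0.08 in the paired fit (adjusted p = 0.00158). The first of these also takes in the spread of the mature libraries (350, 61.5 and 52.2 TPMTMM), which the paired fit leaves out.

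Of 6 listed genes of the photosystems and of chlorophyll synthesis, 2 rose, where 2.99% of all unigenes did, and 4 did not pass. The median log2 fold change was 0.54, and all 6 were apart upward, as were 18.2% of all unigenes. In the paired fit 5 of the 6 rose, where 12.9% of all unigenes did. LPA1, an assembly factor of photosystem II, had 18.7, 17.3 and 20.98 TPMTMM in intermediate leaves and 12.9, 13.5 and 12.3 TPMTMM in young leaves (log2 fold change 0.52, SE 0.10, limma adjusted p = 0.0253). CPX1, a coproporphyrinogen oxidase on the route to chlorophyll and heme, had 203, 187 and 244 TPMTMM in intermediate leaves and 138, 146 and 135 TPMTMM in young leaves (log2 fold change 0.59, SE 0.12, limma adjusted p = 0.0302). The 3 young libraries lay close together below the lowest intermediate one.

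Another 3 genes of this list passed in the paired fit alone. PSB27-1, a photosystem II assembly and repair protein, had 189, 182 and 276 TPMTMM in intermediate leaves and 135, 145 and 143 TPMTMM in young leaves (limma adjusted p = 0.0707 and 0.0181 in the paired fit). HCAR, a reductase that turns chlorophyll b products back to chlorophyll a, had 39.98, 39.1 and 40.96 TPMTMM in intermediate leaves and 32.6, 31.1 and 25.4 TPMTMM in young leaves (limma adjusted p = 0.0636 and 0.0214 in the paired fit). PORC, a light-dependent protochlorophyllide oxidoreductase, had 303, 275 and 270 TPMTMM in intermediate leaves and 224, 231 and 155 TPMTMM in young leaves (limma adjusted p = 0.21 and 0.0274 in the paired fit). PSAD2, a subunit of photosystem I and the most abundant gene of the list, had 1423, 1484 and 1784 TPMTMM in intermediate leaves, against 1153, 1220 and 850 TPMTMM in young leaves, and passed in neither (limma adjusted p = 0.172 and 0.0907 in the paired fit). In TPM without scaling 0 of the 6 passed. Without intermediate 1, intermediate 3, young 1, young 2 or young 3 the count was also 0, without mature 2 it was 1 and without mature 1 it was 3.

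Among 8 other plastid proteins, 2 rose (2.99% of all unigenes did), 6 did not pass and all 8 changes were positive, with a median log2 fold change of 0.44. D27 (unigene BS7377_c0_g1_i5), an isomerase of carotenoids that starts strigolactone synthesis, had 9.77, 9.09 and 15.98 TPMTMM in intermediate leaves and 4.28, 5.05 and 5.25 TPMTMM in young leaves. Its log2 fold change was 1.07 (SE 0.20, limma adjusted p = 0.0269), though its level is low. CLPP5, a subunit of the plastid Clp protease, had 197, 173 and 219 TPMTMM in intermediate leaves, against 149, 147 and 131 TPMTMM in young leaves (log2 fold change 0.45, SE 0.11, limma adjusted p = 0.0470). PFC1, a methyltransferase of plastid ribosomal RNA, had 20.4, 18.2 and 19.98 TPMTMM in intermediate leaves and 14.6, 15.98 and 12.3 TPMTMM in young leaves, and passed in the paired fit (adjusted p = 0.029, against 0.0577 from limma without the block). AT1G01320 and PLIP2, a plastid lipase, also passed in the paired fit, which called 5 of the 8, against rises in 12.9% of all unigenes. CLPP5 did not pass in TPM without scaling or with upper-quartile scaling, and 1 member rather than 2 passed in the fit of the 6 libraries and in limma without the trend. The count of this list was 0 without intermediate 1, young 1, young 2 or young 3, was 1 without intermediate 3, mature 2 or mature 3, and was 3 without mature 1.

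SPL8 (unigene BS13176_c1_g2_i3), a SQUAMOSA promoter-binding transcription factor with a role in reproductive development of Arabidopsis, had the largest fall of the named genes. It had 31.1, 30.01 and 21.98 TPMTMM in intermediate leaves, against 53.99, 58.9 and 57.8 TPMTMM in young leaves. The 3 ratios of intermediate to young within pairs were 0.576, 0.510 and 0.380. Its log2 fold change was -1.03 (SE 0.13, limma adjusted p = 0.00945), and the call was lost only without young 2. SPL8 was the only 1 of 13 regulators of transcription and development to pass, where 5.75% of all unigenes did. The median log2 fold change of that list was 0.0072.

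Genes of cell division and DNA repair all had negative changes, but few passed. Of 10 members, 1 fell, where 2.76% of all unigenes did, 0 rose and 9 did not pass, with a median log2 fold change of -0.23. In 6 of the 10 each intermediate library lay below each young one, as in 15.7% of all unigenes. BARD1 (unigene BS14943_c0_g1_i4), a partner of BRCA1 in the repair of DNA breaks, had 9.77, 9.09 and 10.99 TPMTMM in intermediate leaves and 15.4, 15.98 and 21.01 TPMTMM in young leaves. The log2 fold change was -0.75 (SE 0.15, limma adjusted p = 0.0308), and the call held without 1 library only for mature 1, mature 2 and mature 3. CTF18, of a complex that loads the replication clamp, had 8.88, 8.18 and 8.99 TPMTMM in intermediate leaves and 11.997, 11.8 and 14.01 TPMTMM in young leaves (limma adjusted p = 0.153 and 0.0133 in the paired fit). TPX2, which organizes spindle microtubules, had 9.77, 9.09 and 8.99 TPMTMM in intermediate leaves, against 11.997, 11.8 and 14.9 TPMTMM in young leaves (limma adjusted p = 0.0873 and 0.0305 in the paired fit). HTR12, the histone variant of centromeres, had 24.9, 26.4 and 29.97 TPMTMM in intermediate leaves and 31.7, 31.1 and 35.02 TPMTMM in young leaves, and passed in neither fit. In TPM without scaling 3 of the 10 fell, where 4.4% of all unigenes did. There the median of this list was -0.41, against a median of -0.12 over all unigenes.

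The marker lists of dividing cells and of green chlorenchyma consist of genes already in the lists described, so their sums restate those lists and are no separate result. The summed level of 5 markers of dividing cells, all from the cell division list, was 60.4 to 65.9 TPMTMM in intermediate leaves. In young leaves it was 74.0 to 88.4 TPMTMM. Of the 5, 4 were apart downward, as were 15.7% of all unigenes. In limma 3 of the 5 had an unadjusted p under 0.05 and 0 passed the threshold. The sum of 6 markers of green chlorenchyma was 6336 to 9836 TPMTMM in intermediate leaves, with its highest value in intermediate 3, and 3912 to 3997 TPMTMM in young leaves. Without PEPC1 and PPDK, which make up most of it, the sum was 1934 to 2351 TPMTMM in intermediate leaves and 1160 to 1609 TPMTMM in young leaves. All 6 were apart upward, as were 18.2% of all unigenes. PEPC1, PPDK and LPA1 rose, where 2.99% of all unigenes did. The sum of 5 epidermis markers was 469 to 494 TPMTMM in intermediate leaves and 393 to 483 TPMTMM in young leaves, so it overlapped, and 0 of them passed in limma (1 at an unadjusted p under 0.05). The lowest value of any marker was 3.00 TPMTMM, on a scale where the 1 added to TPM keeps values above 0. The part of such cell types in the changes of other genes was not tested.

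Of 12 genes of vesicle traffic and the cytoskeleton, 2 fell, where 2.76% of all unigenes did, and 10 did not pass, with a median log2 fold change of -0.20. VAMP726, a SNARE protein of membrane fusion, had 11.5, 11.8 and 8.99 TPMTMM in intermediate leaves and 15.4, 15.98 and 17.5 TPMTMM in young leaves (log2 fold change -0.56, SE 0.13, limma adjusted p = 0.0454). NET3A, of a family that binds actin, had 5.33, 6.37 and 4.99 TPMTMM in intermediate leaves and 8.57, 8.41 and 9.63 TPMTMM in young leaves (log2 fold change -0.59, SE 0.12, limma adjusted p = 0.0296). Both groups were apart. VAMP726 did not pass in TPM or with upper-quartile scaling, and held without 1 library only for mature 1. NET3A held without intermediate 2 and without each mature library.

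Lists outside photosynthesis, division and traffic gave few or no calls. Besides SPL8, 0 genes passed among the remaining regulators, the genes of cuticle and wax (6), cell wall (8), splicing and mRNA (9), ribosome and translation (10), pentatricopeptide repeat proteins (9), further mitochondrial proteins (8), hormone and stress signalling (7), cell death and proteases (7), protein folding and turnover (10), peroxisome (2) and qRT-PCR reference (2). These are counts of limma with stage only, which called 5.75% of all unigenes. Of the 78 members of the 11 lists without any call, 7 had an unadjusted p under 0.05, a share not taken over all unigenes. In the paired fit 12.9% of all unigenes rose and 9.39% fell. There cuticle and wax had 2 rises, regulators 4 rises and 2 falls, and cell wall, mitochondrial and cell death genes 1 rise and 1 fall each. Hormone, ribosome and folding genes had 1 fall each, and splicing and pentatricopeptide repeat genes had 0 calls. Of the 10 genes of ribosomes and translation, 9 had a negative change, with a median of -0.09, against -0.0029 over all unigenes.

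Some members of these lists were apart between the stages and passed in the paired fit. ERF023, a transcription factor of the ethylene response family, had 31.98, 35.5 and 34.96 TPMTMM in intermediate leaves and 23.1, 25.2 and 19.3 TPMTMM in young leaves (limma adjusted p = 0.135 and 0.00881 in the paired fit). GPAT4, an acyltransferase of cutin synthesis, had 143, 138 and 171 TPMTMM in intermediate leaves, against 111, 119 and 119 TPMTMM in young leaves (limma adjusted p = 0.0941 and 0.0296 in the paired fit). CSLD5, a cellulose synthase-like protein, had 7.11, 8.18 and 5.99 TPMTMM in intermediate leaves and 10.3, 10.1 and 14.01 TPMTMM in young leaves (limma adjusted p = 0.0529 and 0.0301 in the paired fit). CSLD5 was thus lower in intermediate leaves, where ERF023 and GPAT4 were higher. TRM82, a subunit of a tRNA methyltransferase, had 18.7, 20.005 and 20.98 TPMTMM in intermediate leaves and 24.9, 27.8 and 25.4 TPMTMM in young leaves (limma adjusted p = 0.0579 and 0.0203 in the paired fit).

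**Figure D4:**
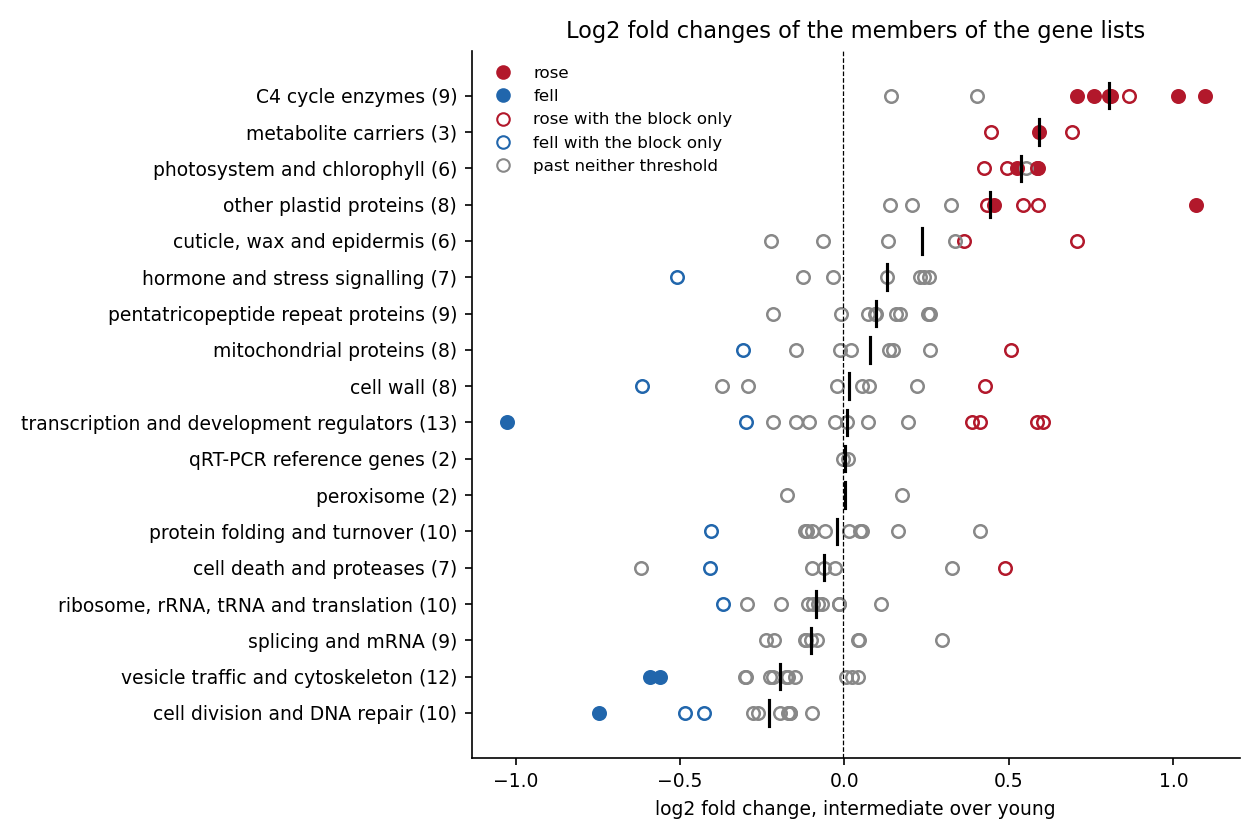
Each circle is 1 of the 139 listed genes at its log2 fold change of intermediate over young leaves, in 18 lists with their number of members, ordered by the list's median (black bar), and the dashed line is the median of all unigenes tested. Filled circles passed with stage only and open coloured circles in the paired fit only. The 9 C4 cycle enzymes have the highest median (0.80) and the 10 genes of cell division and DNA repair the lowest (-0.23).

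Outside the lists, 2 of the 70 other named genes passed, where 5.75% of all unigenes did. AT1G03370 had 17.8, 17.3 and 19.98 TPMTMM in intermediate leaves and 12.9, 12.6 and 14.9 TPMTMM in young leaves, with nearly the same ratio in each pair (1.38, 1.37 and 1.34). The log2 fold change was 0.42 (SE 0.10, limma adjusted p = 0.0470), a call lost in TPM without scaling (0.0967), with upper-quartile scaling (0.0685) and without any 1 library other than mature 1 (0.0592 to 0.152). AT1G04150 had 2.67, 2.73 and 2.997 TPMTMM in intermediate leaves and 5.14, 5.89 and 7.003 TPMTMM in young leaves (log2 fold change -0.88, SE 0.12, limma adjusted p = 0.0124), at a level where rounding of TPM to whole numbers by the authors sets much of the value. It lost its call only without intermediate 1 or young 2. In all, 12 of the named genes rose and 5 fell, and in the paired fit 38 rose and 19 fell.

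Several named genes varied with the replicate number as well as with the stage, as PPA1 did, and passed in the paired fit only. With the block in a fit of all 9 libraries, 0 of PPA1 and the 6 genes that follow passed (limma adjusted p of 0.089 to 0.836). NAC002, a stress-related transcription factor, had 187, 191 and 102 TPMTMM in intermediate leaves and 117, 124 and 70.9 TPMTMM in young leaves. Its ratio of intermediate to young was 1.60, 1.54 and 1.44 in the 3 pairs (limma adjusted p = 0.399 and 0.0049 in the paired fit). GPAT2, another acyltransferase, had 22.2, 19.1 and 47.95 TPMTMM in intermediate leaves and 13.7, 13.5 and 23.6 TPMTMM in young leaves, high in both libraries numbered 3 (limma adjusted p = 0.395 and 0.00689 in the paired fit). LHY, which acts in the circadian clock, was likewise highest in both libraries numbered 3, with 24.97 TPMTMM in intermediate 3 against 9.77 and 10.002 TPMTMM in the other intermediate libraries, and 14.9 TPMTMM in young 3 against 8.57 and 7.57 TPMTMM in the other young libraries. Its ratios within pairs were 1.14, 1.32 and 1.68 (adjusted p = 0.0446 in the paired fit and 0.782 without the block). BXL2, a xylosidase of the cell wall, had 36.4, 40.01 and 10.99 TPMTMM in intermediate leaves and 24.9, 24.4 and 10.5 TPMTMM in young leaves, with ratios within pairs of 1.47, 1.64 and 1.05. MCCA, a subunit of mitochondrial methylcrotonyl-CoA carboxylase, likewise had its smallest ratio in pair 3, with ratios of 1.70, 1.62 and 1.14. GA2OX6, a gibberellin-inactivating oxidase, fell in the paired fit (adjusted p = 0.0376), with 8.88, 8.18 and 0.999 TPMTMM in intermediate leaves against 11.997, 10.1 and 2.63 TPMTMM in young leaves. The 0.999 TPMTMM of intermediate 3 equals its library factor, the floor of the scale for a TPM that rounds to 0. The labels do not say what the libraries numbered 3 share, and the part of that number in these values was not tested. The fits of 9 libraries also take part of their spread from the mature libraries, which the paired fit leaves out. There BXL2 had 276, 7.39 and 7.83 TPMTMM, and LHY had 18.5, 92.3 and 82.2 TPMTMM.

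**Figure D5:**
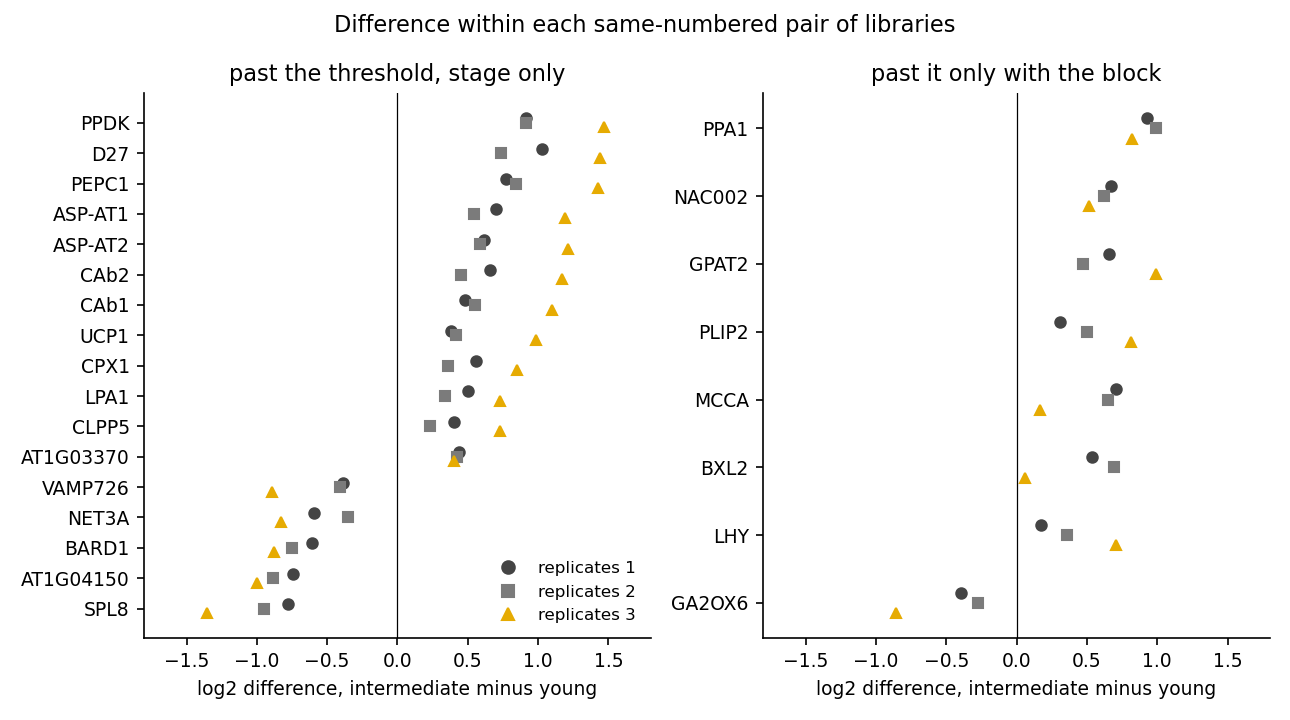
Points give the log2 difference, intermediate minus young, within each same-numbered pair of libraries, for the 17 named genes past the threshold with stage only (left) and 8 genes past it in the paired fit only (right). All points of a gene lie on 1 side of 0, which at left follows from groups that lie apart. For the C4 cycle enzymes at left the pair of replicates 3 (yellow triangles) lies farthest from 0, up to 1.47 for PPDK.

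The pair of replicates 3 had the widest differences over the transcriptome. Differences of intermediate minus young had an SD over unigenes of 0.34, 0.33 and 0.49 on the log2 scale in pairs 1, 2 and 3. Within its stage, intermediate 3 lay 0.297 from the mean of the other 2 intermediate libraries (mean absolute log2 difference), against 0.190 for intermediate 1 and 0.187 for intermediate 2. Young 3 lay 0.280 from the other 2 young libraries, against 0.168 for young 1 and 0.170 for young 2. By this measure 420 unigenes of intermediate 3 and 396 of young 3 were off by more than 1 on the log2 scale, and 54 to 96 in the other 4 libraries. With intermediate 3 and young 3 both left out, 35 unigenes rose and 87 fell in limma, and PPDK, SPL8 and AT1G04150 were the named genes still called, so that of the lists only the C4 cycle enzymes and the regulators kept a call.

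Over the 17 named calls, single libraries mattered unequally. None was left without young 2, only SPL8 without intermediate 1, and SPL8 with AT1G04150 without young 1 or young 3. Without intermediate 3, ASP-AT1, PPDK and D27 also held, and without intermediate 2 these with CAb2, CLPP5, CPX1, LPA1 and NET3A. All 17 held without mature 1, 7 without mature 2 and 12 without mature 3. None of the 17 changed direction in these fits.

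Among unigenes with no name and a mean of at least 100 TPMTMM, 95 rose and 17 fell. Their 3 pairs had 1 direction, which follows from groups that lie apart and is no further evidence. Of all unigenes, 11% rose and 2.51% fell at 100 to 300 TPMTMM. Above 300 TPMTMM 12% rose and 0.352% fell. The largest fall was that of BS6730_c3_g1_i1, with 49.8, 52.7 and 50.9 TPMTMM in intermediate leaves against 194.5, 209.5 and 328 TPMTMM in young leaves. Its log2 fold change of -2.19 (SE 0.18, limma adjusted p = 0.00178) passed without any 1 library. BS20649_c0_g1_i2 had 506, 539 and 271 TPMTMM in intermediate leaves and 1363, 1410 and 1228 TPMTMM in young leaves (log2 fold change -1.66, SE 0.31, limma adjusted p = 0.0261), and was the single fall above 300 TPMTMM. It missed the threshold without intermediate 1, intermediate 3 or any young library, with adjusted p-values of 0.062 to 0.0886 from limma. The largest rises were those of BS1865_c0_g1_i4, with 139, 133 and 158 TPMTMM in intermediate leaves and 54.8, 54.7 and 84.9 TPMTMM in young leaves (log2 fold change 1.16, SE 0.19, limma adjusted p = 0.0187), and BS3968_c0_g1_i2, with 176, 159 and 234 TPMTMM in intermediate leaves and 91.7, 95.1 and 84.9 TPMTMM in young leaves (log2 fold change 1.04, SE 0.14, limma adjusted p = 0.0104). BS1865_c0_g1_i4 missed the threshold without intermediate 1, intermediate 3, young 1 or young 2 (adjusted p of 0.062 to 0.078 from limma), and BS3968_c0_g1_i2 passed without any 1 library. BS1865_c0_g1_i4 comes from the same assembled locus as the unigene of AT1G01570, which had 3.55, 5.46 and 10.99 TPMTMM in intermediate leaves and 2.57, 1.68 and 3.50 TPMTMM in young leaves and passed in the paired fit (adjusted p = 0.0146). Isoforms of a locus share reads, so their separate values are uncertain.

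As whole profiles, intermediate and young libraries were not cleanly separated. The mean absolute log2 difference was 0.320 over the 9 between-stage pairs of libraries and 0.240 over the 6 pairs within a stage. The difference of 0.080 was the largest of the 10 ways to split the 6 libraries into 3 and 3 (exact permutation test, one-sided p = 0.1, the smallest that this design allows). Intermediate 1 and 2 were 0.138 apart and young 1 and 2 were 0.110 apart, and each of these lay nearer to the opposite stage's libraries 1 and 2 (0.238 to 0.253) than to library 3 of its own stage (0.286 to 0.310).

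Fewer unigenes were detected in intermediate leaves, with 34084, 34909 and 33724 unigenes reaching 1 TPM, against 35503, 35325 and 35267 in young leaves (exact permutation test, two-sided p = 0.1, the smallest that 3 libraries against 3 allow). At 0.5 TPM the groups overlapped. By the study's account each young library was sequenced more deeply than each intermediate one, so depth and stage cannot be told apart here. The 100 most abundant unigenes held 24.7%, 24.6% and 29.3% of all TPM in intermediate leaves and 23.4%, 21.9% and 25.99% in young leaves. Those groups overlapped (exact permutation test, two-sided p = 0.4), and library 3 was the highest at both stages.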

How the data were processed

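RNA of whole leaves (CTAB extraction, stranded mRNA libraries, paired 100-base reads per the labels) was sequenced in 9 libraries. Trimming (Trimmomatic), assembly of all libraries (Trinity), quantification (RSEM) and removal of redundant transcripts were done by the authors, and no Trimmomatic or RSEM version is stated. The authors deposited TPM of 36907 unigenes and TPMTMM of 11709 of these. All but 1 of the TPMTMM rows follow from rounding TPM to integers, adding 1 and multiplying by a library factor (tolerance 0.001). No counts were at hand, so the depth of single values is unknown and no interval for counting error is given.

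Here, limma 3.58.1 in R 4.3.3 was fitted with a mean-variance trend to log2(TPMTMM + 1) of the 9 libraries, with no term but stage, and p-values of intermediate minus young were adjusted by Benjamini-Hochberg over 11709 unigenes (threshold 0.05). The added 1 understates changes of low unigenes. Distances and detection used exact permutation tests. Further software was pandas 2.3.3, numpy 2.4.6 and matplotlib 3.10.9 under Python 3.11.15. In simulated data (11709 unigenes, independent normal noise) limma called 17 of 53 changes of 0.5 on the log2 scale. It called 50 of 66 changes of 1, 78 of 81 of 2 and 7 of 11509 unchanged unigenes. Real deviations were not independent, with correlations of 0.445 to 0.696 between same-numbered libraries. The simulated rates are therefore not error rates of the real comparison. Recovery was not split by level, so it does not speak for scarce unigenes. Other scalings, added values, minimum levels, sets of libraries and all unigenes of the TPM table were tried as alternatives.

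Deviations from the stage means correlated at 0.467, 0.445 and 0.696 between the intermediate and young libraries numbered 1, 2 and 3, so the replicate number was used as a block, a pairing that comes from the data and not from the labels. Intermediate 1 with young 2 (0.547) and intermediate 2 with young 1 (0.508) correlated as well, and number 3 against 1 or 2 was negative (-0.609 to -0.551).

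Members and lists were chosen with earlier results of these data known. Text genes are the 14 named by the study, list members, the 10 largest called rises and falls among the named unigenes (mean of at least 10, 1 direction in the 3 pairs, where 11 rises and 3 falls met the rule), and the 2 largest of each among unnamed ones (mean of at least 100). The name table was at hand only in part, so no enrichment was tested, and its columns of the authors' fold changes and p-values were not used.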

Additional observations from a re-analysis of the deposited data

Results flagged for a closer look

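A signal appeared in unigenes that the comparison does not cover. Of 25198 unigenes for which only TPM was deposited, 44 rose in intermediate leaves (0.175%) and 126 fell (0.5%) in limma over all 36907 unigenes, on TPM times the library factors. In the same fit 62 (0.53%) rose and 96 (0.82%) fell among the 11709 unigenes with TPMTMM. Unigenes outside the TPMTMM table were scarcer, with a median mean of 3.60 TPM, against 17.7 TPM inside. No sample group was large enough for a check of single outlying values.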

How the results depend on the processing

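The 673 calls (350 rises, 323 falls) became 2609 (1510 and 1099) with the replicate block in the 6 libraries, where the 17 named calls became 57, and 496 (235 and 261) with it in the 9 libraries, where they became 7. All unigenes of the TPM table gave 328 calls (106 rises) and 1 named call. TPM without scaling gave 169 rises and 515 falls, and a mean of at least 10 TPMTMM gave 203 falls. With intermediate 3 and young 3 both left out, chosen after seeing the data, there were 122 calls (35 and 87) and 3 named calls. Leaving out 1 library gave 62 to 1134 calls, 9 to 620 rises, 53 to 514 falls and 0 to 27 named calls. These fits also have fewer libraries. Upper-quartile scaling gave 293 rises and 385 falls, where the median unigene fell by 0.06 on the log2 scale. Of 58 genes and unigenes in the text, 3 changed sign, none of them called without the block: without young 3 PLIP2 had -0.018, and without intermediate 3 LHY had -0.0045 and GA2OX6 0.24 (over the 9 libraries left out, -0.018 to 0.97, -0.0045 to 0.68 and -1.08 to 0.24). The causes were not tested. The other choices (6 libraries without block, log2 with 0 or 5 added, no trend) kept the totals of rises, falls and named calls within 1.5 times, while the 6 libraries alone left 0 of 1 carrier and 1 of 2 other plastid proteins called. The gap in distance between and within stages (0.0802) was 0.081 to 0.0997 under its other settings, and detected unigenes and top shares kept their direction. The depth behind each value is unknown, and with 3 libraries a stage no permutation p can be under 0.1.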

Other observations

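Isoforms of 1 assembled locus did not always move together. Of 540 loci with 2 or more unigenes among those tested, 5 had 2 or more called in limma with stage only. In 1 of these 5, 1 unigene rose and another fell. In the paired fit, which called 22.3% of all unigenes, 38 loci had 2 or more called, and 11 of these had calls in both directions. Reads shared by isoforms can be split between them, so the separate values are uncertain.

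FRO2, a ferric reductase of iron uptake, had 3.55, 3.64 and 4.99 TPMTMM in intermediate leaves and 2.57, 2.52 and 2.63 TPMTMM in young leaves (limma adjusted p = 0.0691 and 0.0406 in the paired fit). GRXS1, a glutaredoxin, had 3.55, 3.64 and 3.996 TPMTMM in intermediate leaves and 2.57, 2.52 and 1.75 TPMTMM in young leaves (limma adjusted p = 0.0534 and 0.0418 in the paired fit). At such levels, rounding of TPM to whole numbers by the authors and the library factors set much of both differences. PRMT10, an arginine methyltransferase, had 7.996, 9.09 and 12.99 TPMTMM in intermediate leaves and 13.7, 15.1 and 15.8 TPMTMM in young leaves (limma adjusted p = 0.219 and 0.016 in the paired fit). Each of these 3 genes, named after their values were seen, had groups that lay apart.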
